A study of Mus musculus with 6 samples.

Results

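The genes described here are the 8 that handle phosphate and pyrophosphate around mineralizing cells: Alpl, Enpp1, Ank, Phospho1, Smpd3, Slc20a1, Slc20a2 and Phex. They were chosen by name for their known function, with earlier results of these data known. Each matched 1 of the 23358 gene rows of the deposited table. RNA was measured by RNA-seq in MC3T3-E1 cells, a line of pre-osteoblasts from mouse calvaria of the C57BL/6 background. One group received NU7441, a small-molecule inhibitor of DNA-PK, the DNA-dependent protein kinase, at 1 µM for 16 h (3 samples). The other received the solvent DMSO for 16 h (3 samples). Both groups were grown to confluency in αMEM with serum, and the labels name neither a genetic change nor an osteogenic supplement. The series' design text says that RNA of triplicates was pooled within independent experiments. It does not say what a sample number stands for, so every p-value refers to the spread of these samples only, which may be technical.

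Bone mineral forms where inorganic phosphate is plentiful and its inhibitor, inorganic pyrophosphate, is scarce. ENPP1 makes pyrophosphate from extracellular nucleotides, ANK carries it (or the ATP it is made from) out of the cell, and tissue-nonspecific alkaline phosphatase, the product of Alpl, splits it into phosphate. Inside matrix vesicles PHOSPHO1 frees phosphate from phosphocholine, which the neutral sphingomyelinase encoded by Smpd3 helps to supply. The sodium-phosphate cotransporters PiT-1 (Slc20a1) and PiT-2 (Slc20a2) bring phosphate into the cell, and the endopeptidase PHEX acts on mineral-binding matrix peptides and keeps the phosphate-wasting hormone FGF23 low.

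Of the 8 genes, Ank was higher in NU7441, Alpl and Slc20a1 were lower, and the other 5 did not pass the test. The call of Alpl was lost with a robust fit (edgeR, adjusted p = 0.095). It lay close to the threshold with DESeq2 (Wald test, adjusted p = 0.046). The changes were small: the fold of NU7441 over DMSO was 1.17 for Ank, 0.816 for Alpl and 0.862 for Slc20a1. All 8 passed the filter on low counts and were tested. In the main fit (edgeR, adjusted p of 0.05) 30.7% of the 13784 genes tested were called, 14.1% higher and 16.6% lower. Upper-quartile scaling moved the share of calls that were higher to 56.5%, against 45.9% with the TMM scaling used here. Having 3 of 8 called is near that background and is not a result about these genes as a set. The NU7441 and DMSO samples did not overlap for 3 of 8 genes, against 42.8% of all genes tested. Their median log2 fold change was -0.08, against 0.01 over all genes tested. In bulk RNA such as this, fewer cells of a type and less RNA per cell cannot be told apart.

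Promoter windows from RefSeq on the build GRCm38.p6 were used for 6 of the 8 genes, with 8 windows in all. Those of Smpd3 and Slc20a2 were not analysed here. The windows are shown because the series' title concerns αNAC, a coregulator that partners the AP-1 factor JUN, and because RUNX2 is the lineage's main regulator. The letters TGANTCA (AP-1) and ACCACA (RUNX) were searched on both strands in the 250 bases before each start. TGANTCA was present in 6.7% and ACCACA in 14.0% of all 32851 windows of that length. The windows of the 3 called genes are given with that of Phospho1, the 1 gene whose window held TGANTCA. Capitals mark the matches, and sequences run 5′ to 3′ on the gene's strand.
Alpl, outer start, chr4:137796385-137796634, minus strand: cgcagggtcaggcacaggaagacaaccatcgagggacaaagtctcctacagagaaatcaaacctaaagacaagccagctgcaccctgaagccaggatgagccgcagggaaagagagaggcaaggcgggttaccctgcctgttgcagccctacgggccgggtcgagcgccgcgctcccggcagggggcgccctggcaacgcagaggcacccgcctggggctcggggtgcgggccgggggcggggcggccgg
Ank, chr15:27466427-27466676, plus strand: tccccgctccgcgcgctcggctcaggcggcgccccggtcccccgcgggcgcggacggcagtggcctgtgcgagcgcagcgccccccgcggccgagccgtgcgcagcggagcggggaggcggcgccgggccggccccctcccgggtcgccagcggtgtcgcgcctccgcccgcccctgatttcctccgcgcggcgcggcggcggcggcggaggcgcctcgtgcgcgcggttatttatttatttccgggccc
Slc20a1, outer start, chr2:129198523-129198772, plus strand: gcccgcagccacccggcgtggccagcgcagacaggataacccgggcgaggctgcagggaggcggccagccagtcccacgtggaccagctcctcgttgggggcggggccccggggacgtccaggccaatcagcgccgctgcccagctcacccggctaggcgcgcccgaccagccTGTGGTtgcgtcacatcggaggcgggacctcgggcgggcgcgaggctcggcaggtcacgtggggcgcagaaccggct
Phospho1, chr11:95824250-95824499, plus strand: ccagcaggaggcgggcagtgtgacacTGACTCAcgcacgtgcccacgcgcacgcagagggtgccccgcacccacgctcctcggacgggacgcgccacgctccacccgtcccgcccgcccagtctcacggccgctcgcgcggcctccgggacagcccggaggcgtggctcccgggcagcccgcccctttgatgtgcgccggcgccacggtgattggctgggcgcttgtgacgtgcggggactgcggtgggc
The Alpl window, which lies at the outer of its 2 starts, and the Ank window held neither set of letters, and the same was true of the inner starts of Alpl and Slc20a1 and of the Phex window. Slc20a1 held 1 ACCACA match on the opposite strand, 77 bases before its outer start. Phospho1 held 1 TGANTCA match 224 bases before its start. Enpp1 held 1 ACCACA match 144 bases before its start. A match is a description of letters and no site of binding.

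The levels of the 8 genes spanned more than 2 orders of magnitude. On the deposited RPKM scale, which divides counts by gene length and depth and so allows genes to be compared, Ank stood highest, at 17.1 ± 0.143 in NU7441 and 15.0 ± 0.394 RPKM in DMSO (SD, n = 3 each). Alpl followed at 9.63 ± 0.769 RPKM in NU7441 and 12.0 ± 1.48 RPKM in DMSO. Slc20a1 stood at 7.12 ± 0.175 RPKM in NU7441 and 8.43 ± 0.239 RPKM in DMSO. Slc20a2 (4.57 ± 0.165 RPKM in NU7441, 4.94 ± 0.142 in DMSO) and Smpd3 (2.26 ± 0.475 RPKM in NU7441, 2.91 ± 0.409 in DMSO) came next.

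The other 3 genes stood low among the genes tested. Of those, 14.8% had a lower mean CPM than Phospho1, 13.2% than Phex and 3.48% than Enpp1. Phospho1 stood at 0.429 ± 0.0802 RPKM in NU7441 and 0.459 ± 0.0292 RPKM in DMSO, Phex at 0.107 ± 0.0148 RPKM in NU7441 and 0.113 ± 0.0149 RPKM in DMSO, and Enpp1 at 0.0611 ± 0.0167 RPKM in NU7441 and 0.0611 ± 0.0164 RPKM in DMSO. The order from Ank to Enpp1 was the same in 6 of 6 samples, and within each group no sample of one gene reached a sample of its neighbour in the order. The closest neighbours were Ank and Alpl in DMSO, where the lowest Ank sample had 14.6 RPKM and the highest Alpl sample 13.7 RPKM. The mean RPKM of Ank was 281 times that of Enpp1 in NU7441 and 246 times in DMSO.

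**Figure D1:**
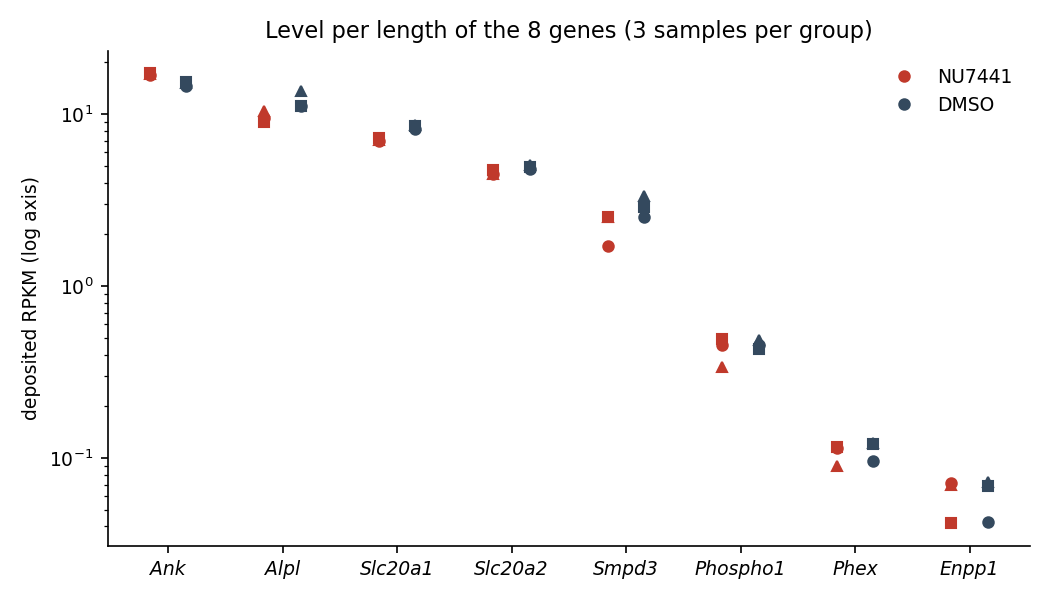
Deposited RPKM (log axis) of each gene, from the highest to the lowest, with 1 point per sample, NU7441 in red left of DMSO in dark blue; marker shapes give the replicate. The order is the same in 6 of 6 samples and runs from Ank, at 17.1 RPKM in NU7441 and 15.0 in DMSO, to Enpp1, at 0.0611 in both.

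Among the genes of pyrophosphate supply, Ank rose in NU7441 (mm10 chromosome 15, 27466677 to 27594907, plus strand). It had 78.7, 82.2 and 81.8 counts per 1000000 counts (CPM) in the NU7441 samples, against 67.2, 71.2 and 69.6 CPM in the DMSO samples. Every NU7441 sample lay above every DMSO sample. The log2 fold change was 0.22 ± 0.04 (SE; 95% interval 0.15 to 0.30; edgeR, adjusted p = 0.00022). Ank was called in 16 of 16 alternative fits, with log2 fold changes from 0.20 to 0.25.

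Enpp1 (mm10 chromosome 10, 24641411 to 24712102, minus strand) had 16, 10 and 16 counts in the NU7441 samples, against 10, 14 and 22 counts in the DMSO samples. Since all deposited counts are even, a read pair seems to add 2, and a sample then holds between 5 and 11 pairs of Enpp1. The groups overlapped, and the log2 fold change was 0.01 ± 0.39 (SE; 95% interval -0.83 to 0.85; edgeR, adjusted p = 0.99). The interval runs from 0.564-fold to 1.81-fold, so changes of Enpp1 within that range were not excluded at this depth.

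Alpl, whose product removes pyrophosphate, fell in NU7441 (mm10 chromosome 4, 137741732 to 137796377, minus strand). It had 31.5, 30.7 and 35.8 CPM in the NU7441 samples, against 37.1, 37.3 and 45.3 CPM in the DMSO samples. The groups did not overlap, but the highest NU7441 sample and the lowest DMSO sample were close, and replicate 3 was the highest in each group. The log2 fold change was -0.29 ± 0.07 (SE; 95% interval -0.45 to -0.14; edgeR, adjusted p = 0.006). It was -0.19 without DMSO replicate 3 (adjusted p = 0.032), and with a robust fit the adjusted p was 0.095.

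Because Ank and Alpl changed in opposite directions, the ratio of their RPKM values within a sample differed more between the groups than either gene did. That ratio does not depend on how libraries are scaled. Alpl over Ank was 0.557, 0.519 and 0.609 in the NU7441 samples, against 0.768, 0.728 and 0.905 in the DMSO samples, a mean log2 ratio of -0.84 ± 0.11 in NU7441 and -0.33 ± 0.16 in DMSO (SD, n = 3 each). The groups did not overlap, and the difference of the log2 ratios was -0.51. That separation had to follow, since the RPKM values of both genes were already apart between the groups, in opposite directions. The ratio restates those changes and is no further support for them. Alpl over Enpp1 lay between 132 and 214 in NU7441 and between 162 and 264 in DMSO. Those ranges overlapped and rest on the few read pairs of Enpp1. The ratios are given with no test.

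**Figure D2:**
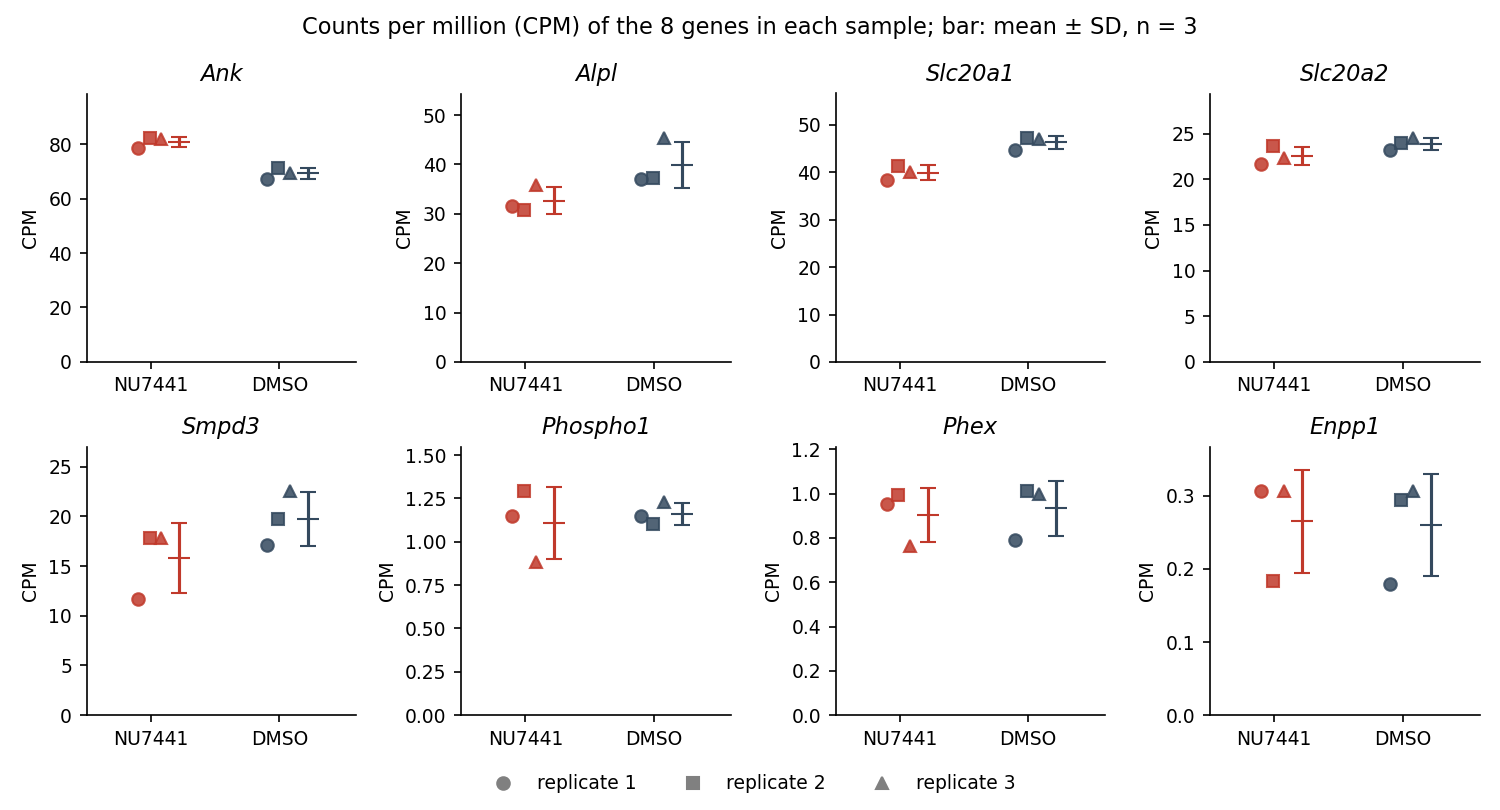
CPM of each gene in each sample (y axes start at 0 and differ between panels), NU7441 left of DMSO, with the mean ± SD beside the points and marker shapes for the replicate. The NU7441 and DMSO samples do not overlap for Ank, Alpl and Slc20a1 and overlap for the other 5 genes.

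Of the genes that help to supply phosphocholine or free its phosphate, Smpd3 did not pass the test (mm10 chromosome 8, 106252548 to 106337988, minus strand). It averaged 15.7 ± 3.51 CPM in NU7441 and 19.8 ± 2.71 CPM in DMSO (SD, n = 3 each). It had 11.7, 17.8 and 17.8 CPM in the NU7441 samples, against 17.1, 19.7 and 22.5 CPM in the DMSO samples. The groups overlapped, with NU7441 replicate 1 far below the other samples. The log2 fold change was -0.33 ± 0.13 (SE; 95% interval -0.61 to -0.06; edgeR, adjusted p = 0.062, unadjusted p = 0.02). It was -0.16 without NU7441 replicate 1, and Smpd3 was called lower in 7 of 16 alternative fits. In GENCODE an exon of Smpd3 overlaps Prmt7 on the opposite strand, and the sources used here do not say whether reads were counted by strand.

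Phospho1 (mm10 chromosome 11, 95824500 to 95832140, plus strand) had 60, 70 and 46 counts in the NU7441 samples, against 64, 52 and 88 counts in the DMSO samples. In CPM these were 1.15, 1.29 and 0.881 in NU7441, against 1.15, 1.1 and 1.23 in DMSO, and the groups overlapped. The log2 fold change was -0.07 ± 0.21 (SE; 95% interval -0.53 to 0.39; edgeR, adjusted p = 0.84). Its exons overlap, in GENCODE, those of Zfp652 on the same strand and of Abi3 on the opposite strand, and its row in the deposited table overlaps that of Abi3. No source used here says how reads shared with either gene were counted, and the Phospho1 counts are uncertain to that extent.

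Of the phosphate importers, Slc20a1 fell and Slc20a2 did not pass the test. Slc20a1 (mm10 chromosome 2, 129198773 to 129211612, plus strand) had 38.4, 41.4 and 40.1 CPM in the NU7441 samples, against 44.8, 47.2 and 47.1 CPM in the DMSO samples. Every NU7441 sample lay below every DMSO sample. The log2 fold change was -0.21 ± 0.04 (SE; 95% interval -0.30 to -0.13; edgeR, adjusted p = 0.00068), and the gene was called in 16 of 16 alternative fits. In GENCODE its exons overlap the minus-strand transcripts Gm4430 and 9830144P21Rik.

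Slc20a2 (mm10 chromosome 8, 22476700 to 22569616, plus strand) had 21.7, 23.7 and 22.3 CPM in the NU7441 samples, against 23.2, 24.0 and 24.5 CPM in the DMSO samples, and the groups overlapped. Its log2 fold change was -0.08 ± 0.05 (SE; 95% interval -0.18 to 0.02; edgeR, adjusted p = 0.22). In GENCODE an exon of Slc20a2 overlaps Smim19 on the opposite strand. Slc20a1 over Slc20a2, on the RPKM scale, was 1.56, 1.53 and 1.58 in the NU7441 samples, against 1.7, 1.73 and 1.69 in the DMSO samples. These ratios did not overlap between the groups. Whether the log2 fold changes of the importers differ was not tested.

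Phex (mm10 chromosome X, 157162075 to 157415286, minus strand) had 50, 54 and 40 counts in the NU7441 samples, against 44, 48 and 72 counts in the DMSO samples. The CPM values were 0.955, 0.992 and 0.766 in NU7441, against 0.792, 1.01 and 1.0 in DMSO. The groups overlapped, and the log2 fold change was -0.05 ± 0.23 (SE; 95% interval -0.55 to 0.45; edgeR, adjusted p = 0.90).

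**Figure D3:**
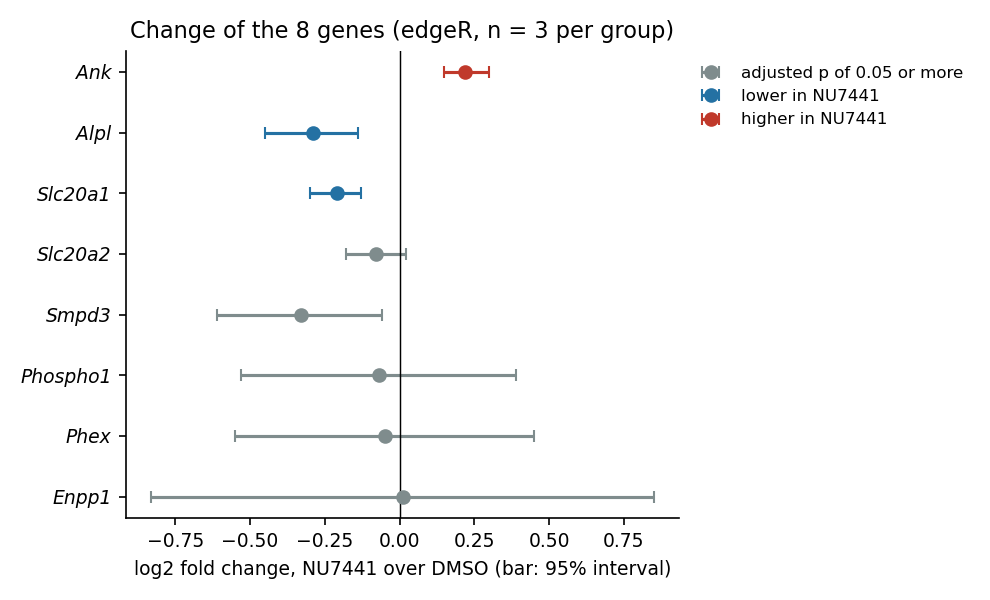
Log2 fold change of NU7441 over DMSO with its 95% interval for each gene (edgeR, 3 samples per group), coloured by the call at an adjusted p of 0.05. The interval is narrow for Ank, at 0.15 to 0.30, and wide for the scarce transcript Enpp1, at -0.83 to 0.85.

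Alpl and Smpd3 varied between samples of the same group far more than most genes of their level. The pooled within-group SD of log2 CPM was 0.14 for Alpl, and 98.7% of the 4779 tested genes within 2-fold of its mean CPM had a smaller one (median 0.05). It was 0.28 for Smpd3, above that of 99.8% of 4324 such genes (median 0.07). Both had their highest value in DMSO replicate 3. Alpl was highest in replicate 3 of each group and Smpd3 lowest in replicate 1 of each group. Ank (SD 0.04), Slc20a1 (0.05) and Slc20a2 (0.05) lay near the middle, with 42.1%, 51.2% and 41.9% of like-level genes below them. The spread of Phospho1, Phex and Enpp1 was below the median of genes as scarce as they are. Alpl had at least 1652 counts and Smpd3 at least 612 counts in each sample.

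**Figure D4:**
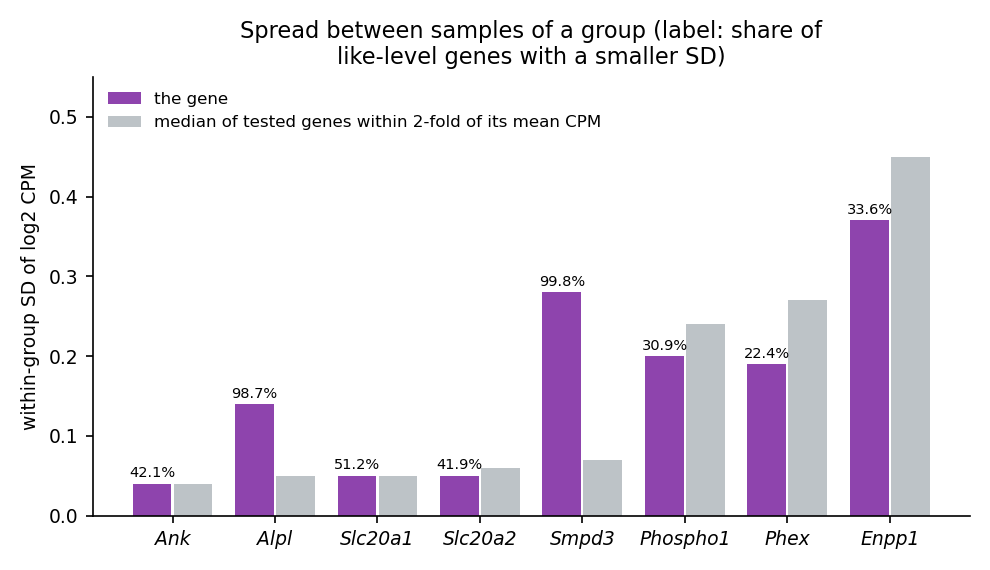
Pooled within-group SD of log2 CPM of each gene (purple) beside the median of tested genes within 2-fold of its mean CPM (grey), with the share of those genes that have a smaller SD written above. Smpd3, at 99.8%, and Alpl, at 98.7%, stand far above their like-level medians, and the other 6 genes do not.

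The gene whose pattern over the 6 samples was nearest to each member was found by the root mean square (RMS) difference of mean-centred log2 CPM, over at least 11868 genes. For Ank it was Nit1 (RMS 0.013), for Slc20a1 Sf3a3 (0.015), for Slc20a2 Reps1 (0.013), for Smpd3 Aldh1a7 (0.041) and for Alpl Dhrs13 (0.047). For the scarce transcripts it was 3110057O12Rik for Phospho1 (0.064), Ispd for Phex (0.046) and Gstp1 for Enpp1 (0.14). With 6 samples and so many genes, near neighbours are found for most patterns.

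Beyond the 8 members, 62 other genes of the pathway in 7 lists were examined, of which 45 passed the filter and were tested. Of these 11 rose and 6 fell, with a median log2 fold change of 0.03, while of all genes tested 14.1% rose and 16.6% fell (30.7% called), with a median of 0.01. Having 17 of 45 called is not far above that background and is not a result about these genes as a set. More of the 45 rose than fell, unlike all genes tested, but that contrast depends on the scaling. With upper-quartile scaling 2488 of all genes tested were called higher and 1919 lower. Whether the lists differ from the background was not tested. The counts for the single lists, of at most 9 tested genes each, are given as descriptions that single out no list. The 17 that were not tested had at most 14 counts in any sample. Among them were Fgf23, the hormone of osteocytes, with at most 2 counts, and Slc34a1 and Slc34a2, the phosphate transporters of kidney and gut, with 0 counts in all samples. Counting error alone allows up to 3 read pairs for a count of 0, or 0.126 CPM in the shallowest sample.

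The list for extracellular nucleotides and pyrophosphate, not all of whose genes encode extracellular enzymes, went both ways. Of 7 tested genes 2 rose and 1 fell (median log2 fold change -0.16), beside 14.1% higher and 16.6% lower over all genes tested (30.7% called). Entpd3, which encodes an ectoenzyme that strips phosphate from ATP and ADP, rose to 74.8 ± 2.09 CPM in NU7441, against 56.9 ± 2.07 CPM in DMSO (log2 fold change 0.39 ± 0.04; edgeR, adjusted p = 1.7e-06). Nt5e, whose product CD73 frees phosphate from AMP, rose to 13.8 ± 1.68 CPM in NU7441, against 10.3 ± 0.64 CPM in DMSO (0.43 ± 0.09; edgeR, adjusted p = 0.0015). Ppa1, the cytosolic pyrophosphatase, fell to 25.5 ± 0.851 CPM in NU7441, against 33.7 ± 1.2 CPM in DMSO (-0.41 ± 0.04; edgeR, adjusted p = 3.6e-06). Each of these 3 log2 fold changes was larger in size than that of any of the 8 members. Abcc6, a transporter needed for ATP release in liver, had at most 8 counts in any sample.

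In phosphate transport and sensing, 3 of 7 tested genes rose and the other 4 did not pass, with a median log2 fold change of 0.10, beside 14.1% higher and 30.7% called over all genes tested. The 3 genes were Ip6k1 (116 ± 2.07 CPM in NU7441, 97.5 ± 1.86 in DMSO; log2 fold change 0.25 ± 0.03) and Ip6k2 (30.6 ± 0.503 CPM in NU7441, 26.7 ± 1.4 in DMSO; 0.20 ± 0.04), kinases that make the inositol pyrophosphates through which cells sense phosphate, and Kidins220 (190 ± 1.76 CPM in NU7441, 171 ± 2.72 in DMSO; 0.15 ± 0.03), a partner of the exporter XPR1. Their edgeR adjusted p values were 2.2e-05, 0.0032 and 0.00079 in that order. Xpr1 itself, the phosphate exporter, stood at 66.7 ± 3.25 CPM in NU7441 and 62.5 ± 1.66 CPM in DMSO and did not pass (edgeR, adjusted p = 0.09).

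In the list for the FGF23 axis, 2 of 4 tested genes rose and 1 fell (median log2 fold change 0.08). Over all genes tested 14.1% were higher and 16.6% lower (30.7% called), and 4 genes are too few to single out this list. The number called was 1 without DMSO replicate 2 or without DMSO replicate 3. Dmp1, a matrix phosphoprotein of osteocytes, had 2.1, 2.54 and 1.61 CPM in the NU7441 samples, against 1.44, 1.26 and 1.31 CPM in the DMSO samples (log2 fold change 0.64 ± 0.20; edgeR, adjusted p = 0.022). The call was lost without NU7441 replicate 2 (adjusted p = 0.09), without DMSO replicate 2 (0.065) or without DMSO replicate 3 (0.075). Furin, a protease that cuts FGF23, rose too (log2 fold change 0.13 ± 0.04; edgeR, adjusted p = 0.011, and 0.068 without DMSO replicate 1). Fgfr1, a receptor of FGF23, fell (log2 fold change -0.10 ± 0.03; edgeR, adjusted p = 0.034). It was no longer called with upper-quartile scaling (0.11) and without 4 of the 6 samples in turn.

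Alkaline phosphatase needs zinc and a glycosylphosphatidylinositol anchor to reach the cell surface. Of 9 tested genes of these steps 1 rose and 1 fell (median log2 fold change -0.06). Over all genes tested 14.1% were higher and 16.6% lower (30.7% called). Piga, which encodes the catalytic subunit of the first step of anchor synthesis, fell to 7.26 ± 0.357 CPM in NU7441, against 10.1 ± 0.223 CPM in DMSO (log2 fold change -0.48 ± 0.08; edgeR, adjusted p = 0.00021). It was called in 16 of 16 alternative fits. Pgap2, which remodels the anchor, rose (0.12 ± 0.04; edgeR, adjusted p = 0.047) but was called in 7 of 16. The zinc transporters Slc30a5, Slc30a6 and Slc30a7, which load the enzyme, did not pass, with log2 fold changes of -0.06, -0.01 and -0.06.

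Of 9 tested genes of sphingomyelin and phosphocholine 3 fell and the other 6 did not pass, near the 30.7% called over all genes tested, of which 16.6% were lower. The median log2 fold change of the 9 was 0.03, so that it and the called genes differ in sign. Smpd4, another neutral sphingomyelinase, fell to 39.2 ± 1.18 CPM in NU7441, against 45.6 ± 0.771 CPM in DMSO (log2 fold change -0.22 ± 0.04; edgeR, adjusted p = 0.00029). Sgms1, a sphingomyelin synthase, fell to 47.3 ± 1.18 CPM in NU7441, against 53.6 ± 0.365 CPM in DMSO (-0.18 ± 0.03; edgeR, adjusted p = 0.001). Phospho2, a phosphatase related to PHOSPHO1, fell to 11.3 ± 0.179 CPM in NU7441, against 13.0 ± 0.491 CPM in DMSO (-0.19 ± 0.06; edgeR, adjusted p = 0.027). Its call was lost when any of 5 of the 6 samples was left out, at adjusted p values up to 0.12.

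Of 6 tested genes of matrix vesicles and mineral inhibitors 2 rose and the other 4 did not pass (median log2 fold change 0.09). Over all genes tested 14.1% were higher and 30.7% called. Mgp, which encodes the calcification inhibitor matrix Gla protein, rose to 727 ± 7.79 CPM in NU7441, against 646 ± 16.2 CPM in DMSO (log2 fold change 0.17 ± 0.03; edgeR, adjusted p = 0.00019). Anxa6, a calcium-dependent membrane-binding protein found in matrix vesicles, rose to 458 ± 1.89 CPM in NU7441, against 391 ± 1.75 CPM in DMSO (0.23 ± 0.03; edgeR, adjusted p = 1.5e-05). Of the 3 tested relatives of PHEX in the neprilysin family (median log2 fold change 0.11), Ece1, the endothelin-converting enzyme, rose (0.17 ± 0.04; edgeR, adjusted p = 0.0062), and Mme, which encodes neprilysin, stood at 140 ± 4.18 CPM in NU7441 and 137 ± 3.74 CPM in DMSO.

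**Figure D5:**
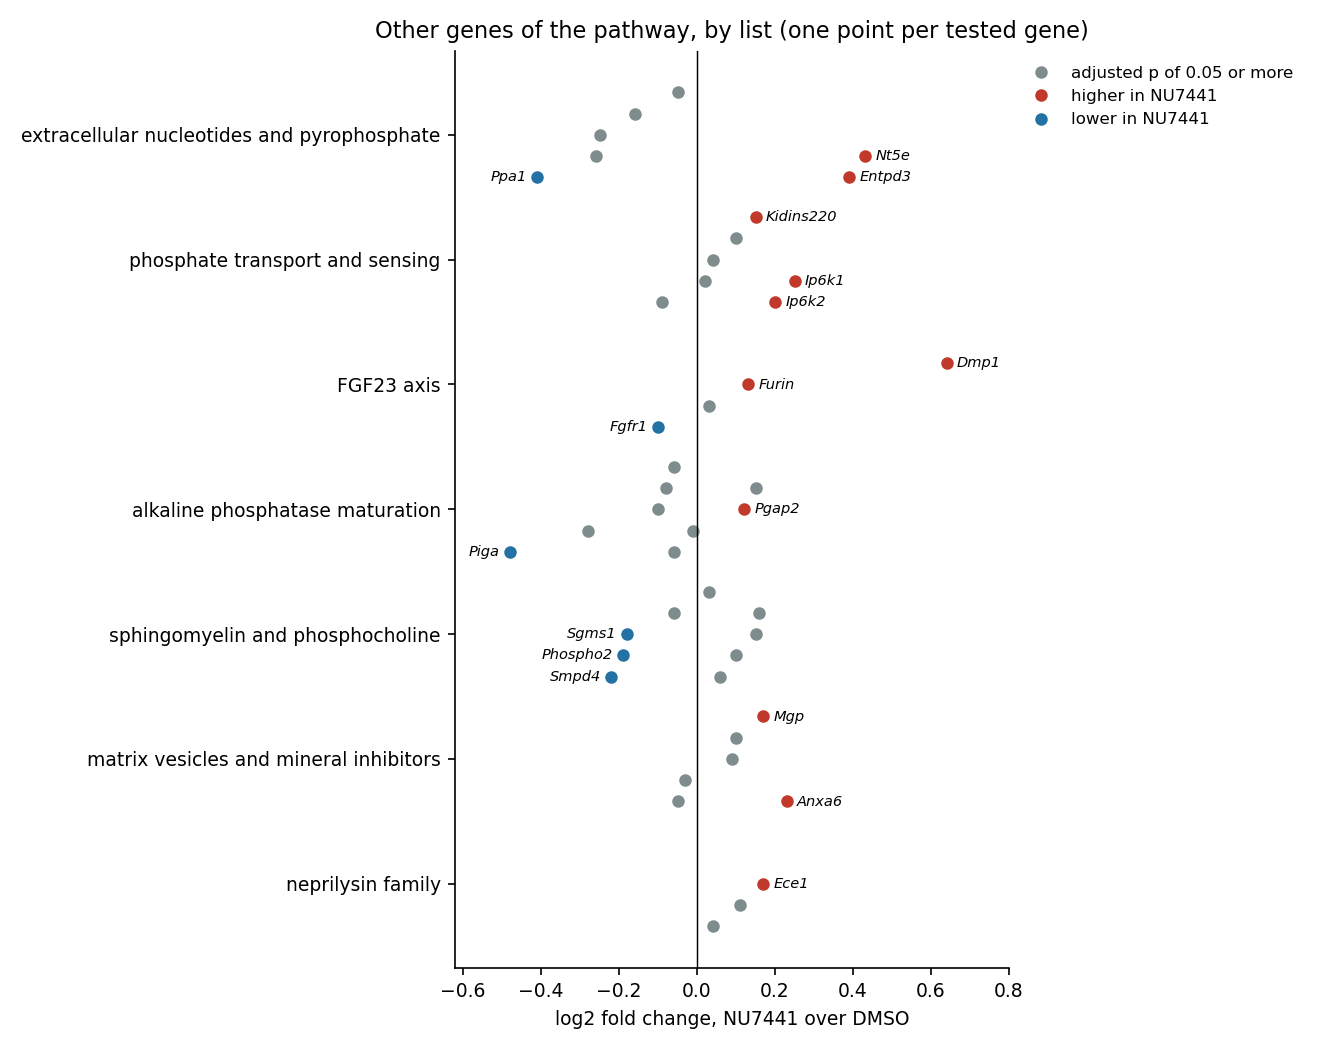
Log2 fold change of NU7441 over DMSO for each of the 45 tested genes of the 7 lists, 1 point per gene, coloured by the call at an adjusted p of 0.05, with called genes named. Called genes lie on both sides of 0, from Piga at -0.48 to Dmp1 at 0.64.

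The cells carried markers of the osteoblast lineage in both groups. The summed level of 9 osteoblast markers was 48487 to 49969 CPM in NU7441 and 47005 to 49440 CPM in DMSO, most of it from the collagen genes Col1a1 and Col1a2. Of the 7 tested, 3 rose and 1 fell, beside 14.1% higher and 16.6% lower over all genes tested (30.7% called). Counts for the marker lists are given as descriptions. Both osteocalcin genes, Bglap and Bglap2, were too scarce to test. Ibsp, which encodes the mineral-binding matrix protein bone sialoprotein, had 4.89, 8.56 and 7.81 CPM in the NU7441 samples, against 11, 14.4 and 13.9 CPM in the DMSO samples, with no overlap. Its log2 fold change was -0.89 ± 0.15 (SE; edgeR, adjusted p = 0.00041, and 0.059 with a robust fit), a fold of 0.541. Spp1, which encodes osteopontin, an inhibitor of mineral growth, rose to 1632 ± 60.5 CPM in NU7441, against 1377 ± 28.7 CPM in DMSO (0.25 ± 0.03; edgeR, adjusted p = 5.2e-06) and was called in 16 of 16 alternative fits. Sparc rose too (log2 fold change 0.11 ± 0.03; edgeR, adjusted p = 0.0079, and 0.17 with a robust fit). Col1a2 rose slightly (0.05 ± 0.02; edgeR, adjusted p = 0.024) and was called in 8 of 16 alternative fits. Runx2, Sp7 and Col1a1 did not pass, with log2 fold changes of 0.01, -0.08 and 0.00.

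Osteocyte, adipocyte, endothelial and skeletal muscle lists summed to at most 2.54 CPM in any sample, and Sost, Acan, Ptprc, Kdr and Myod1 were at 0 in all samples. The markers of dividing cells moved with the groups, since 5 of 5 fell, beside 16.6% lower over all genes tested. Their summed level was 285 to 345 CPM in NU7441 against 777 to 900 CPM in DMSO. In the chondrocyte list 2 of 4 tested genes rose, beside 14.1% higher over all genes tested. These were Sox9 (0.14 ± 0.03) and Col2a1 (0.23 ± 0.08, called in 10 of 16 alternative fits). The list summed to 89.5 to 93.7 CPM in NU7441 against 82.2 to 83.9 CPM in DMSO, most of it Sox9 (79.3 ± 1.26 CPM in NU7441, 72.2 ± 1.16 in DMSO). The osteoclast and macrophage list summed to 112 to 118 CPM in NU7441 and 106 to 114 CPM in DMSO, nearly all of it Ctsk, which did not pass (edgeR, adjusted p = 0.07). The part of these in the results above was not tested. Total gene counts ranged from 52150994 to 55021692 per sample in NU7441 and from 47312968 to 71292628 in DMSO.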

How the data were processed

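The authors deposited, per the file headers, a count and an RPKM value for each gene and sample and a gene length. As tools, the submitters' processing notes list HTSeq, bcl2fastq and TopHat2 2.0.6, with mm10 as the build. Deposited counts were all even (0 odd values). Deposited RPKM values divide the count by the length and by a total per sample of which gene counts fill 74.2% to 75.7%. Rows were 23358, with 5529 at 0 in all samples, and 0 sample columns were left unmapped.

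The counts were analysed in R 4.3.3 with edgeR 4.0.16: filterByExpr with a minimum count of 10 and a minimum total of 15, TMM factors, then glmQLFTest, two-sided, on a model of group alone, and Benjamini-Hochberg adjustment over all genes tested. The biological coefficient of variation was 5.6%. CPM uses scaled library sizes. Log2 CPM for spreads and nearest genes had a prior count of 2, and nearest genes needed a mean of at least 1 CPM. Alternatives used limma 3.58.1 (voom) and DESeq2 1.42.0. The procedure was tested on simulated counts. Samples of one group differed by more than sampling noise, so none was taken as a repeat run of the same library, and each was counted once. Separate libraries of the same RNA could differ so too, so this check cannot decide whether the samples are independent experiments. Promoter windows came from RefSeq and gene overlaps from GENCODE M21.

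The members and lists were chosen with earlier results of these data known. The genes named are the 8 members, the called genes of each list (at most 4 by lowest adjusted p), the nearest gene of each member and markers. Fgf23, Slc34a1, Slc34a2, Abcc6, Xpr1, the zinc transporters and Mme were named after their values were seen.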

Additional observations from a re-analysis of the deposited data

How the results depend on the processing

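Of the 8 members, Ank, Slc20a1 and Slc20a2 kept their direction and their side of the threshold in 16 of 16 alternatives each. Alpl kept its direction in all of them, at log2 fold changes from -0.36 to -0.19, and lost its call with edgeR's robust option (-0.29, adjusted p = 0.095). With a replicate block the edgeR adjusted p of Alpl was 5e-06 (-0.29). Smpd3 kept its direction and was called with library size only (-0.36, adjusted p = 0.045), without a low-count filter (-0.33, adjusted p = 0.011), with limma-voom (-0.36, adjusted p = 0.042) and with a replicate block (-0.34, adjusted p = 0.00045). It lay between -0.43 and -0.16 with each sample left out. Enpp1 changed sign with library size only (-0.01) and lay between -0.19 and 0.22 with each sample left out. Phospho1 lay between -0.20 and 0.07 and Phex between -0.15 and 0.06 in the same fits, and none of these passed the threshold. Enpp1 could not be tested with halved counts, and neither Enpp1 nor Phex where 1 CPM was required in 3 samples, because they were filtered out. Changes of Enpp1 and Phex smaller than their intervals reach on either side of 0 were not detectable at this depth.

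The number of genes called in the alkaline phosphatase list was 1 with library size only, without a low-count filter, with the DESeq2 Wald test and with limma-voom, and 1 to 2 with a sample left out. The FGF23 list had 1 to 2 and the neprilysin list 1 to 2 with a sample left out. With upper-quartile scaling 56.5% of calls over all genes were higher, against 45.9% with TMM. The replicate numbers share no stated meaning, so they were not taken as pairs. The deviations of same-numbered samples from their group means correlated at 0.13, 0.09 and 0.05. Every sample correlated best with its own number. With so few samples centred within each group these correlations constrain one another, so they cannot decide whether the numbers are pairs. With a replicate block 5120 genes were called, against 4231, with 5 genes in the phosphate transport and sensing list and 2 in the neprilysin list. The cause of these changes was not tested.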
